A study of Mus musculus with 8 samples.

Results

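The hepatocyte lineage transcription factors are the DNA-binding proteins that build and keep the gene program of the liver cell. The genes described are Hnf4a, Foxa1, Foxa2, Foxa3, Cebpa, Cebpb, Onecut1, Prox1 and Nr5a2. They were chosen by name as known regulators of hepatocyte identity, not by their values, though earlier results of these data were known by then. They are 9 of the 55487 genes with counts. All 9 passed the filter on low counts that left 14353 genes for testing.

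RNA was sequenced from what the labels call the stromal vascular fraction of tumors of the MC38 line, the cells left once GFP-labelled tumor cells had been removed by sorting. MC38 is a mouse colorectal cancer line, and the labelled cells had been implanted under the skin. There were 4 Bmal1+/+ libraries and 4 libraries labelled Bmal1-/-, by the labels each from tumors of mice of that genotype. As the study describes its mice, the germline Bmal1 deletion is in the host and not in the implanted cells. No drug is named for either group. Both groups were bred from Bmal1+/- founders and kept in a light and dark cycle; age, sex and hour of collection are not given in the sources used here, nor whether a sample pooled tumors.

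HNF4A is a nuclear receptor that binds the control regions of a large part of the liver program. FOXA1, FOXA2 and FOXA3 are forkhead proteins that can open closed chromatin, and ONECUT1, PROX1 and NR5A2 act with them during liver development and in the adult liver. CEBPA and CEBPB are related leucine zipper proteins: the first is tied to the resting, metabolic hepatocyte, and the second to the acute-phase response and regeneration, with a further role in macrophages. Several of these factors bind one another's genes, and for that reason they are often described as a network.

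The libraries held 14054825 to 18449143 counts, so 1 count was worth 0.0557 to 0.0712 CPM, the count scaled to a normalized library of 1000000 counts. Bmal1 itself, listed as Arntl, went against the labels, at 1.55 ± 0.814 CPM where the label was Bmal1+/+ and at 32.6 ± 2.00 CPM where it was Bmal1-/- (SD, n = 4 each). Xist averaged 942 CPM and 0.343 CPM, and Ddx3y 0 CPM and 59.4 CPM, so the sex of the mice and the label cannot be told apart. The labelled tissue was also checked against markers. Alb, the albumin gene, averaged 69300 CPM in Bmal1+/+ libraries and 16100 CPM in the others. With Alb among them, 8 hepatocyte markers together made 91400 to 105000 CPM and 41000 to 57600 CPM. By the calls explained below, Alb was the 1 lower and Apoa1 the 1 higher of the 8, with a median log2 fold change of 0.05. The intestinal factors Cdx1 and Cdx2 had 0 counts in all 8 libraries. Fibroblast and stellate cell markers, 7 in all, together made 144 to 225 CPM and 106 to 114 CPM. Of the 6 tested, 4 were lower in the libraries labelled Bmal1-/- and 0 higher. By the same calls 16.2% of all genes tested were lower and 14.9% higher. Col1a1, a collagen of stromal cells and 1 of the 7, averaged 4.18 CPM and 4.15 CPM. The markers thus went against the tissue label, and the directions below are those of the labels as deposited.

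Between the labels, Cebpb was lower and Prox1 was higher in the libraries labelled Bmal1-/-, and no call was made for the other 7 factors. The 2 calls were of similar size, a log2 fold change of -0.66 for Cebpb and 0.70 for Prox1. Calls are an adjusted p below 0.05 in the quasi-likelihood test of edgeR, adjusted over all genes tested by the method of Benjamini and Hochberg. By that rule 31.1% of all genes tested were called, 16.2% lower and 14.9% higher, against 1 lower and 1 higher of the 9 factors. Neither factor passed the study's criterion, an absolute log2 fold change above 1 with an unadjusted p below 0.05, which took 14.1% of all genes tested (8.71% lower and 5.41% higher) and 0 of the 9 factors. The groups did not overlap for 2 of the 9 factors and for 33.4% of all genes tested. The median log2 fold change of the 9 factors was -0.21 and that of all genes tested was 0.02.

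**Figure D1:**
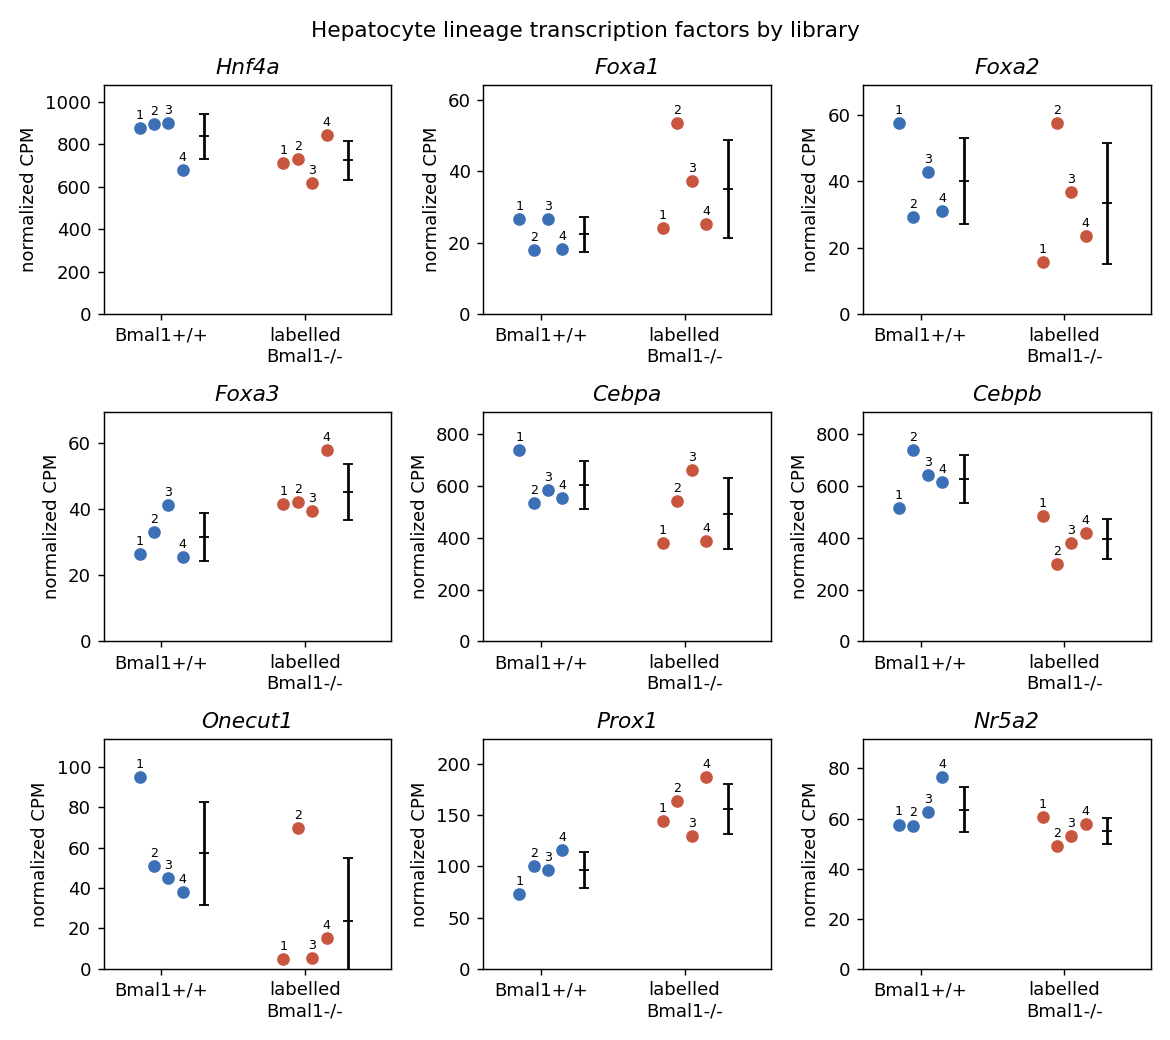
Each panel plots 1 factor, with normalized CPM on the y axis from 0, 4 Bmal1+/+ libraries in blue, 4 libraries labelled Bmal1-/- in red, replicate numbers above the points and the mean with its SD as a bar beside them. The Cebpb points of the groups do not overlap (513 to 737 CPM against 297 to 485 CPM), nor do those of Prox1 (72.8 to 116 CPM against 130 to 187 CPM), and the SD bar of Onecut1 in the libraries labelled Bmal1-/- runs below the axis and is cut at 0.

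Cebpb (ENSMUSG00000056501) is a gene of 1 exon on chromosome 2, at 167688915 to 167690418 of GRCm38, plus strand. Its normalized CPM was 513, 737, 640 and 614 in Bmal1+/+ replicates 1 to 4, and 485, 297, 381 and 417 in replicates 1 to 4 labelled Bmal1-/-. All 4 of the latter were below all 4 of the former, with Bmal1+/+ replicate 1 and replicate 1 labelled Bmal1-/- nearest to each other. The means were 626 ± 92.3 CPM and 395 ± 78.0 CPM (SD, n = 4 each), a log2 fold change of -0.66 (SE 0.17, 95% interval -1.05 to -0.28, adjusted p = 0.017 in edgeR). With no overlap and the libraries labelled Bmal1-/- lower, Cebpb had the pattern of 16.8% of all genes tested.

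CEBPB is also a macrophage factor, and markers of that cell type were compared between the labels. Of 7 macrophage markers, 6 were lower in the libraries labelled Bmal1-/-, and the 7 together made 540 to 682 CPM in Bmal1+/+ libraries and 241 to 479 CPM in the others. None of the 7 was at 0. Of all genes tested, 16.2% were lower and 14.9% higher. Markers of other cell types were lower too, 3 of 5 of endothelium and 4 of 6 tested of fibroblasts and stellate cells, with 0 higher in either list. Of 5 bile duct markers tested, 2 were higher and 2 lower. The part of macrophages in the lower Cebpb level was not tested. In bulk samples such as these, fewer cells of a type and less RNA per cell cannot be told apart. The exons of Tmem189, on the opposite strand, overlap Cebpb, and the strand setting of the counting is not stated; Tmem189 itself had 10.4 to 14.6 CPM in Bmal1+/+ libraries and 11.2 to 14.2 CPM in the others, here by the library total.

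The 250 bases before the Cebpb start, the promoter of the factor that was lower, are at chr2:167688665-167688914 of GRCm38.p6, plus strand, taken from RefSeq and written 5′ to 3′. GC made up 81.6% of them.
Cebpb promoter: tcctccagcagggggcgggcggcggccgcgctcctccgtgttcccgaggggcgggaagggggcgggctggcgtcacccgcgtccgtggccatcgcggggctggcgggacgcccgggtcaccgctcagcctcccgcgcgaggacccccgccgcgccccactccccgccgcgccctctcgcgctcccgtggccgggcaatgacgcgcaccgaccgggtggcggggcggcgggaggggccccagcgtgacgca
None of the motifs searched, listed further on, was in this window, so it has no capitals.

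Prox1 (ENSMUSG00000010175) lies on chromosome 1, at 190118035 to 190170714, minus strand. PROX1 is a homeobox protein needed for the migration of hepatoblasts and, elsewhere, for the identity of lymphatic endothelium. Its normalized CPM was 72.8, 100, 96.1 and 116 in Bmal1+/+ replicates 1 to 4, and 144, 164, 130 and 187 in replicates 1 to 4 labelled Bmal1-/-. All 4 of the latter lay above all 4 of the former. The means were 96.3 ± 17.9 CPM and 156 ± 25.2 CPM (SD, n = 4 each), a log2 fold change of 0.70 (SE 0.16, 95% interval 0.33 to 1.06, adjusted p = 0.010 in edgeR). A pattern without overlap and with the libraries labelled Bmal1-/- higher was found for 16.7% of all genes tested.

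Markers of lymphatic endothelium, the other cell type known for PROX1, were compared between the labels as well. Of 5 such markers 3 passed the filter on low counts; Lyve1 and Flt4 were lower in the libraries labelled Bmal1-/-, none was higher, and Pdpn had 0 counts in all 8 libraries. Together the 5 markers made 120 to 160 CPM and 63.9 to 115 CPM. Of all genes tested, 16.2% were lower. The part of lymphatic endothelium in the higher Prox1 level was not tested. Prox1os, a gene that overlaps Prox1, had 4.36 to 8.18 CPM and 4.38 to 7.19 CPM by the library total, far below Prox1.

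For the factor that was higher, the 250 bases before the Prox1 start are at chr1:190170828-190171077 of GRCm38.p6, minus strand, again from RefSeq and written 5′ to 3′. GC made up 64.8% of them, and none of the motifs searched was there.
Prox1 promoter: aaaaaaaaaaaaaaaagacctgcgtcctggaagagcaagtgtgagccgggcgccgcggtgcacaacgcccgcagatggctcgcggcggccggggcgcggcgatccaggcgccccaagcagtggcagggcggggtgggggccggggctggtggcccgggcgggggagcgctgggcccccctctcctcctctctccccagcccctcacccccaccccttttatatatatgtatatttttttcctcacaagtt

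Onecut1 (ENSMUSG00000043013; chromosome 9, 74861921 to 74891781, plus strand), which encodes hepatocyte nuclear factor 6, varied more between libraries than any other of the 9 factors. The normalized CPM was 94.9, 51.1, 45.1 and 37.9 in Bmal1+/+ replicates 1 to 4, and 4.87, 69.7, 5.48 and 15.2 in replicates 1 to 4 labelled Bmal1-/-. Behind these stood 1576, 798, 672 and 680 counts, and 78, 1007, 77 and 224 counts. Replicates 1, 3 and 4 were below every Bmal1+/+ library, and replicate 2 lay between the highest and the next Bmal1+/+ library. Within the label Bmal1-/- the highest library held 14.3 times the lowest, and within Bmal1+/+ 2.5 times.

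Over all 8 libraries the log2 fold change of Onecut1 was -1.27 (SE 0.75, 95% interval -2.95 to 0.42, adjusted p = 0.23 in edgeR), with means of 57.2 ± 25.7 CPM and 23.8 ± 31.0 CPM (SD, n = 4 each). Without replicate 2 labelled Bmal1-/- it was -2.74 (SE 0.48, adjusted p = 0.0043 in edgeR). Whether Onecut1 was called in edgeR thus depended on 1 library. In limma-voom Onecut1 was called lower with all 8 libraries. Gm20649, on the same strand, shares exon sequence with Onecut1 and had 0.545 to 6.39 CPM by the library total in Bmal1+/+ libraries and 0 to 0.996 CPM in the others.

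The Onecut1 promoter is shown because it alone of the factors' windows held the E-box, CACGTG, the element that BMAL1 and its partner CLOCK are known to bind. It is at chr9:74861671-74861920 of GRCm38.p6, plus strand, from RefSeq, 5′ to 3′, and the capitals mark the E-box. GC made up 71.6% of it.
Onecut1 promoter: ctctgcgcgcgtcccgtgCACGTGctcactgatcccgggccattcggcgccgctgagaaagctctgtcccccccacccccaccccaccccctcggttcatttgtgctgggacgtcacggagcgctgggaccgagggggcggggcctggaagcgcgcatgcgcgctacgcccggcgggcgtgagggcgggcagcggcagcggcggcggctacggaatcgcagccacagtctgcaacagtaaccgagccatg

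RefSeq gives 14 starts for the 9 factors, and 6 motifs were searched on both strands in the 250 bases before each. The E-box was in 1 of the 14 windows and in 6.02% of 32851 RefSeq windows of the same length, including the 14. TGTTTAC, a forkhead motif that FOXA proteins bind, was in 1 of 14 windows, that of Foxa1, and in 3.17% of all windows. The other letters searched were in 0 of the 14: TTANGTAA, the D-box (2.06% of all windows), TAGGTCA, bound by REV-ERB and ROR receptors (2.23%), ATCGAT, bound by ONECUT1 (0.728%), and TTGCGCAA, bound by CEBP proteins (0.164%). No motif overlaps another in these windows. A match is only a match of letters, and its absence says nothing of sites elsewhere.

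None of the 3 FOXA genes was called. Foxa3 (ENSMUSG00000040891; chromosome 7, 19013284 to 19023538, minus strand) had a normalized CPM of 26.5, 33.0, 41.2 and 25.4 in Bmal1+/+ replicates 1 to 4. The libraries labelled Bmal1-/- gave 41.5, 42.2, 39.4 and 57.8. Replicate 3 alone of Bmal1+/+ reached the range of the others, and replicate 4 labelled Bmal1-/- stood above its group. The log2 fold change was 0.52 (SE 0.18, 95% interval 0.12 to 0.92, adjusted p = 0.053 in edgeR), with means of 31.5 ± 7.25 CPM and 45.2 ± 8.47 CPM (SD, n = 4 each). It was just outside the threshold, and DESeq2 (adjusted p = 0.035) and limma-voom (adjusted p = 0.044) placed it inside.

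Foxa1 (ENSMUSG00000035451; chromosome 12, 57540628 to 57546916, minus strand), which acts with Foxa2 at the onset of liver development, had a normalized CPM of 26.7, 17.9, 26.6 and 18.3 in Bmal1+/+ libraries and of 24.1, 53.5, 37.4 and 25.3 in those labelled Bmal1-/-. Replicates 2 and 3 of the latter were above every Bmal1+/+ library, and replicates 1 and 4 fell inside the Bmal1+/+ range. Its log2 fold change was 0.65 (SE 0.26, 95% interval 0.06 to 1.24, adjusted p = 0.087 in edgeR), with means of 22.3 ± 4.95 CPM and 35.1 ± 13.7 CPM (SD, n = 4 each). Among the libraries labelled Bmal1-/-, it was 0.38 (adjusted p = 0.23 in edgeR) without replicate 2, 0.80 (adjusted p = 0.047) without replicate 1 and 0.78 (adjusted p = 0.048) without replicate 4. Without 1 Bmal1+/+ library it was 0.55 to 0.75, with no call.

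Foxa2 (ENSMUSG00000037025; chromosome 2, 148042877 to 148046969, minus strand), which in the adult liver is known as a factor of the fasting response, had a normalized CPM of 57.4, 29.3, 42.8 and 31.0 in Bmal1+/+ libraries. In those labelled Bmal1-/- it was 15.7, 57.5, 36.7 and 23.6, so that the groups overlapped and replicate 2 reached the highest Bmal1+/+ library. The log2 fold change was -0.27 (SE 0.37, 95% interval -1.09 to 0.55, adjusted p = 0.62 in edgeR), and it ranged from -0.66 without replicate 2 labelled Bmal1-/- to -0.03 without replicate 1 of that label, with no call.

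Per length, Foxa3 was the most abundant of the 3 FOXA genes in the mean of each label. FPKM, the fragment count scaled by transcript length and library total, was used for levels between genes, since CPM grows with transcript length. As a share of the summed FPKM of the FOXA genes, Foxa3 made up 48.4% ± 8.41 in Bmal1+/+ libraries and 55.9% ± 13.0 in the others (SD, n = 4 each). Foxa2 made up 32.4% ± 7.02 and 20.6% ± 7.86, with ranges of 26.6% to 42.4% and 13.2% to 29.7%, and Foxa1 19.2% ± 1.55 and 23.5% ± 5.49 (SD, n = 4 each). The ranges overlapped for Foxa2. With exon lengths from GENCODE in place of the authors' lengths, chosen after seeing the data, Foxa2 made up 42.8% and Foxa3 40.1% in Bmal1+/+ libraries, so their order depended on the lengths there.

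Hnf4a (ENSMUSG00000017950; chromosome 2, 163506808 to 163572910, plus strand) had the highest mean CPM of the 9 factors in each label, though not the highest level per length. Its normalized CPM was 877, 896, 900 and 681 in Bmal1+/+ libraries and 713, 732, 618 and 842 in those labelled Bmal1-/-. In 3 Bmal1+/+ libraries it stood above all the others, while replicate 4 fell among the libraries labelled Bmal1-/-. The means were 838 ± 105 CPM and 726 ± 91.9 CPM (SD, n = 4 each), with a log2 fold change of -0.21 (SE 0.15, 95% interval -0.53 to 0.12, adjusted p = 0.31 in edgeR). Hnf4aos, which overlaps Hnf4a on the opposite strand, had at most 7.40 CPM by the library total.

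Cebpa (ENSMUSG00000034957; chromosome 7, 35119293 to 35121928, plus strand) had a normalized CPM of 738, 534, 586 and 552 in Bmal1+/+ libraries and of 380, 544, 663 and 386 in those labelled Bmal1-/-. Replicates 1 and 4 of the latter were below every Bmal1+/+ library, and replicates 2 and 3 were inside the Bmal1+/+ range. The log2 fold change was -0.29 (SE 0.20, 95% interval -0.74 to 0.16, adjusted p = 0.31 in edgeR). It was -0.48 without replicate 3 labelled Bmal1-/- and -0.18 without replicate 1 or 4 of that label or Bmal1+/+ replicate 1, with no call. The ratio of Cebpb to Cebpa in FPKM was 2.21, 4.40, 3.48 and 3.54 in Bmal1+/+ libraries and 4.06, 1.74, 1.83 and 3.44 in the others. The ratios overlapped, at 3.41 ± 0.901 and 2.77 ± 1.16 (SD, n = 4 each), and their size depends on the lengths, which are 4787 bases for Cebpa by the authors' FPKM and 2636 bases in GENCODE.

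Nr5a2 (ENSMUSG00000026398; chromosome 1, 136842571 to 136960448, minus strand), a nuclear receptor that drives bile acid synthesis, was the steadiest of the 9 factors in the libraries labelled Bmal1-/-, where the highest library held 1.23 times the lowest. Its normalized CPM was 57.6, 57.2, 62.6 and 76.4 in Bmal1+/+ libraries and 60.5, 49.0, 52.9 and 57.9 in those labelled Bmal1-/-. The groups overlapped, and the log2 fold change was -0.20 (SE 0.12, 95% interval -0.48 to 0.07, adjusted p = 0.23 in edgeR). For Hnf4a, Cebpa, Nr5a2 and Foxa3 the intervals leave out any change past 1 on the log2 scale; those of Foxa1, Foxa2 and Onecut1 do not.

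In FPKM the factors fell into 3 abundant and 6 less abundant genes in Bmal1+/+ libraries. Cebpb stood first at 411 ± 55.3, followed by Cebpa at 125 ± 21.4 and Hnf4a at 101 ± 13.6 (SD, n = 4 each), which are places 111, 354 and 440 among all genes by mean FPKM. Cebpb did not overlap Cebpa, and Hnf4a did not overlap the next gene, but Cebpa and Hnf4a overlapped each other. Foxa3 (15.3 ± 3.67), Onecut1 (11.0 ± 5.09), Foxa2 (10.4 ± 3.58), Prox1 (9.36 ± 1.62), Nr5a2 (7.09 ± 0.949) and Foxa1 (6.15 ± 1.49) followed (SD, n = 4 each), and each of these overlapped the next.

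The same 3 genes led in the libraries labelled Bmal1-/-, with Cebpb at 264 ± 52.5, Cebpa at 104 ± 28.9 and Hnf4a at 88.6 ± 10.4 FPKM (SD, n = 4 each). Foxa3 (22.3 ± 3.73) came next without overlap on either side, followed by Prox1 (15.5 ± 2.33), Foxa1 (9.84 ± 3.97), Foxa2 (8.83 ± 4.95), Nr5a2 (6.27 ± 0.576) and Onecut1 (4.69 ± 6.18), all with SD and n = 4. Onecut1 thus stood in the middle of the order in Bmal1+/+ libraries and last in the others, with replicate 2 at 13.9 and the lowest library at 0.966. Among all genes its place by mean FPKM was 2544 and 4789, and that of Prox1 was 2858 and 1986. The order of the less abundant factors depended on the lengths. With GENCODE lengths Foxa2 (16.8) came before Foxa3 (15.3) in Bmal1+/+ libraries, and before Foxa1 in the others (14.2 against 10.7). The same 3 genes led with these lengths, and Onecut1 was again last in the libraries labelled Bmal1-/-.

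**Figure D2:**
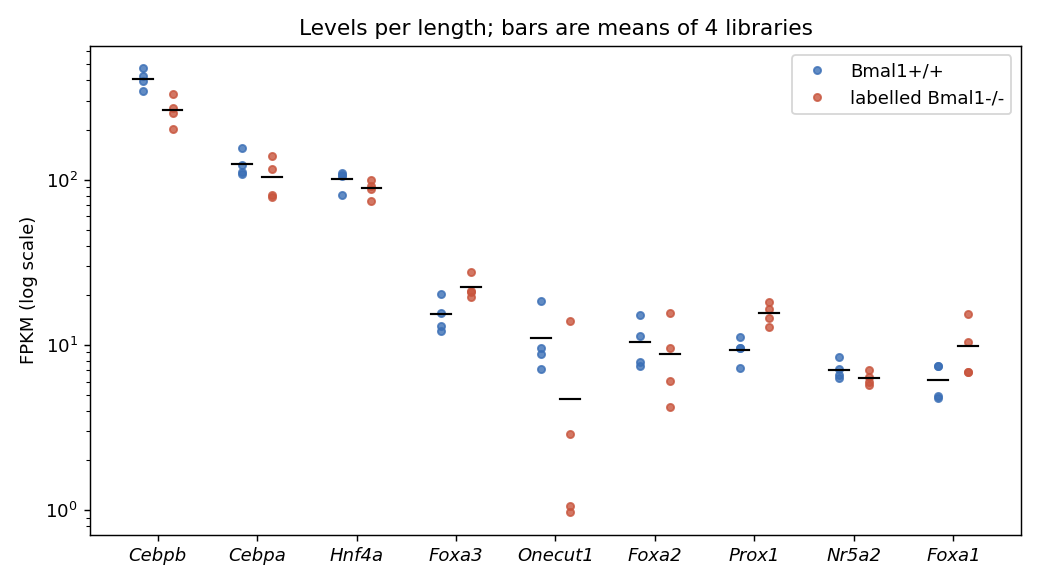
FPKM of the 9 factors on a log axis, with 1 point for each library, Bmal1+/+ in blue, labelled Bmal1-/- in red and short bars at the means of 4 libraries. Cebpb, Cebpa and Hnf4a lie above the other 6 genes in both groups, and the Onecut1 points of the libraries labelled Bmal1-/- run from 0.966 to 13.9.

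The factors also differed in how they varied among libraries of 1 label. Deviations of log2 normalized CPM from the mean of the label were compared over the 8 libraries. Foxa2 and Foxa1 deviated in the same direction in all 8, most strongly in replicates 1 and 2 labelled Bmal1-/-, where Foxa2 deviated by -0.92 and 0.95 and Foxa1 by -0.46 and 0.69. Pearson's r was 0.96 and Spearman's rho 0.95, and r was 0.93 without those 2 libraries, the farthest from the median. Cebpa moved along with Foxa2 (r = 0.81, rho = 0.88, and r = 0.86 without the 2 libraries).

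Cebpb deviated against Foxa2, with r = -0.93 and rho = -0.98, and r = -0.82 without the same 2 libraries. In Bmal1+/+ replicate 1, for example, Foxa2 deviated by 0.57 and Cebpb by -0.28, and in replicate 2 labelled Bmal1-/- by 0.95 and -0.39. Onecut1 followed Foxa2 with r = 0.73 and rho = 0.57, but with r = 0.12 without the 2 libraries, so this relation rested on them. Hnf4a and Foxa3 deviated together (r = 0.75, rho = 0.83, and r = 0.74 without the 2 libraries farthest in Hnf4a). These values describe 8 libraries that share tissue, depth and normalization, and were picked from 36 pairs of factors.

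Igfbp1 and Tat, genes known to change with feeding and glucocorticoids, were set against Foxa2 and Cebpb in the same way. Igfbp1, a gene repressed by insulin that FOXA proteins bind, deviated against Foxa2 (r = -0.88, rho = -0.88, and r = -0.85 without the 2 libraries) and along with Cebpb (r = 0.91, rho = 0.90, and r = 0.89 without the 2 libraries farthest in Cebpb). Its normalized CPM was 140, 400, 379 and 371 in Bmal1+/+ libraries and 492, 187, 256 and 362 in the others. Tat, tyrosine aminotransferase, is in the lists used further on for the targets of the FOXA proteins and of CEBPA. It had 1640, 4840, 4280 and 3380 CPM, and 4620, 2080, 1360 and 2130 CPM. With Foxa2 it gave r = -0.71 and rho = -0.83, and with Cebpb r = 0.73 and rho = 0.86, with r = -0.76 and 0.84 without the farthest 2 libraries. Igfbp1 and Tat were picked from the lists of targets, and these relations are not given for the other targets. Like those of the pairs of factors, the values only describe 8 libraries. The feeding state and the hour of each mouse are not given, and their part in this spread was not tested.

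**Figure D3:**
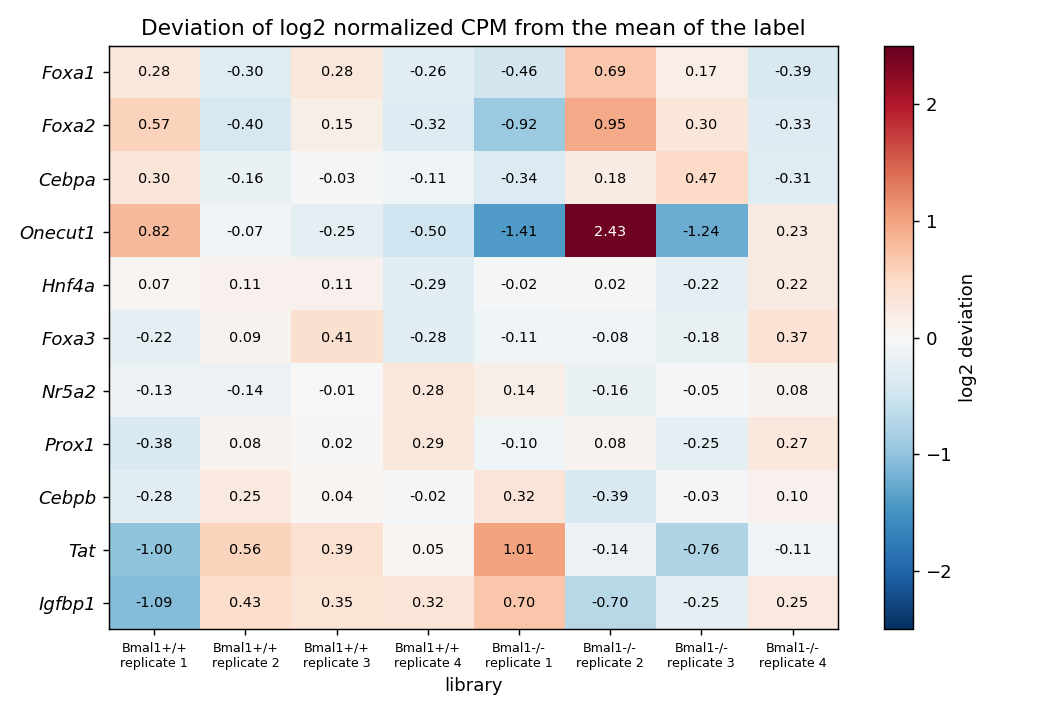
Each cell holds the deviation of log2 normalized CPM of a gene (y axis) in a library (x axis) from the mean of the 4 libraries of its label, red above and blue below. Foxa1 and Foxa2 have the same sign in all 8 libraries and Cebpb mostly the other sign, and the strongest deviation is the 2.43 of Onecut1 in replicate 2 labelled Bmal1-/-.

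By the same measure, Pearson's r of within-label deviations over 8 libraries, each factor was set against the 10025 genes that averaged 5 CPM or more, and the nearest 1 or 2 are named. For Foxa2 1700018L02Rik (0.99) is named, and for Foxa1 1700018L02Rik (0.96) and Amn1 (0.96). For Hnf4a they were Rexo1 (0.98) and Supt5 (0.98), for Cebpa Tmem125 (0.98) and Fahd1 (0.97), and for Cebpb Ppia (0.96) and Arl4d (0.96). Foxa3 was nearest to B4galnt1 (0.97) and Pou6f1 (0.96), and Onecut1 to Scp2-ps2 (0.96) and AI661453 (0.95). Prox1 was nearest to Gm14036 (0.99) and Fbxl17 (0.94), and Nr5a2 to Asb3 (0.97) and Itgb1 (0.96). With 8 libraries and that many genes, high values are found for any gene, and they are given as a description.

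Among 38 other transcription factors of the liver, 36 were tested. Of these, 8 were higher and 5 lower in the libraries labelled Bmal1-/-, with no call for 23, a share called near the 31.1% of all genes tested, and the median log2 fold change was -0.14. Bcl6, a repressor of lipid genes with a part in sex-dependent liver expression, went from 15.4 ± 4.86 CPM to 88.0 ± 27.9 CPM (SD, n = 4 each; log2 fold change 2.51, SE 0.27, adjusted p = 1.4e-04 in edgeR). Cux2, a relative of Onecut1 in the CUT family and in the mouse a female-biased liver factor, went from 71.9 ± 11.1 CPM to 0.409 ± 0.317 CPM (SD, n = 4 each; log2 fold change -7.39, SE 0.33, adjusted p = 8.5e-07 in edgeR), with 14, 5, 3 and 3 counts in the libraries labelled Bmal1-/-. Stat5b, which carries the growth hormone signal in the liver, was higher by 0.52 on the log2 scale (SE 0.09, adjusted p = 0.0028 in edgeR). Since the sex of the mice goes with the label, the part of sex in these values cannot be told apart from that of genotype.

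Cebpe, a relative of Cebpa and Cebpb (log2 fold change 1.55), Hhex (1.16) and Tbx3 (1.15) were higher, as were Atf5 (1.33) and Nr2f6 (0.62). HHEX is a factor of the early liver bud, and TBX3 of hepatoblasts. The groups overlapped for Hhex, whose call was lost in several alternatives. Ppara (-0.91), the fatty acid receptor, Foxo1 (-0.66), Gata6 (-0.62) and the xenobiotic receptor gene Nr1i2 (-0.42) were lower, and the last 3 also lost the call in several alternatives.

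**Figure D4:**
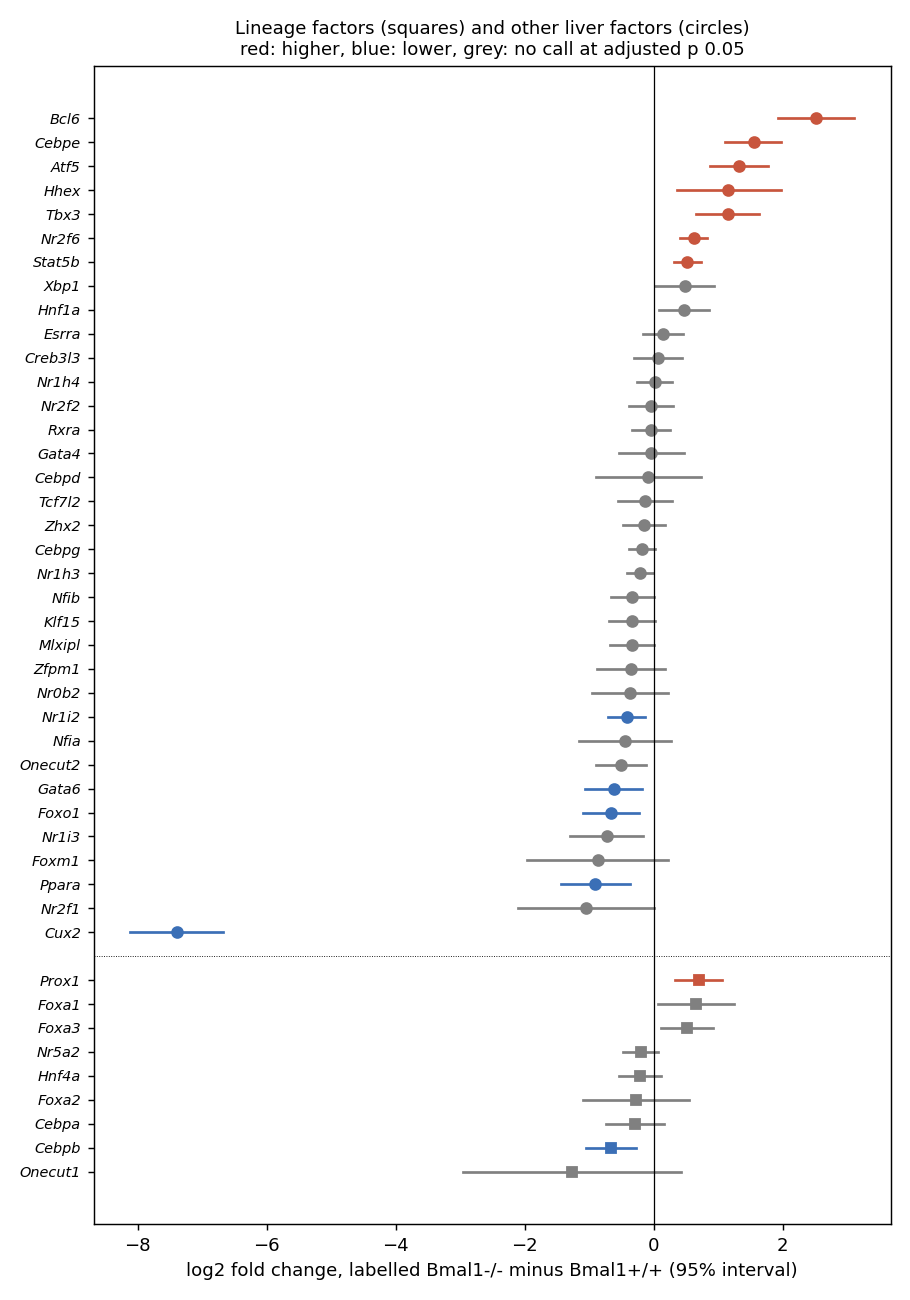
Log2 fold change, labelled Bmal1-/- minus Bmal1+/+, with the 95% interval from edgeR for the tested other liver factors (circles, 1 gene left out) and the 9 lineage factors (squares), red where higher and blue where lower at an adjusted p below 0.05. Prox1 at 0.70 and Cebpb at -0.66 are the coloured squares, the interval of Onecut1 runs from -2.95 to 0.42, and Cux2 at -7.39 lies apart.

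Known targets were listed for HNF4A, the FOXA proteins, CEBPA, CEBPB, ONECUT1 and NR5A2, and none for PROX1. Their counts stand beside the 31.1% called among all genes tested, and no list was tested as a list. Of 14 HNF4A targets, Apoa1 (log2 fold change 1.58, SE 0.24, adjusted p = 0.0011 in edgeR) and F12 (0.56) were higher and Apom (-1.01) was lower, with a median of 0.16. Of 8 FOXA targets tested, Alb alone was called (-2.10, SE 0.20, adjusted p = 6.8e-05 in edgeR), and the median was -0.06. Of 9 CEBPA targets, Alb, Gys2 (-1.35), the liver glycogen synthase, and Ugt1a1 (-1.22), which conjugates bilirubin, were lower and the median was -0.29.

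Of 10 acute-phase targets of CEBPB, Il1rn (-1.74) was lower, a call lost in several alternatives, and none was higher, although the median was 1.42. This median rested on replicate 4 labelled Bmal1-/-, where Saa1, serum amyloid A, reached 7750 CPM against 10.9 to 17.7 CPM in the other 3 libraries of that label, and Hp, haptoglobin, 15600 CPM against 1850 to 3880 CPM. Cebpb itself stood at 417 CPM in that library, within its label's range. In replicates 1 to 3 of that label, Saa1, Saa2, Orm2, Orm3 and Lcn2 were below every Bmal1+/+ library. Saa1, for example, had 10.9 to 17.7 CPM there against 20.4 to 80.3 CPM in Bmal1+/+ libraries. Hp, Orm1, Crp and Hpx overlapped the Bmal1+/+ range in the same replicates. None of these genes was called. Replicate 4 was set aside here because of its values, and the share of all genes with such a pattern was not counted. Of 7 ONECUT1 targets, 1 was higher and 1 lower, with a median of -0.21. The lower one was Slc2a2, the hepatocyte glucose transporter, which went from 551 CPM to 174 CPM (log2 fold change -1.66, SE 0.27, adjusted p = 0.0016 in edgeR).

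Of 8 NR5A2 targets, Scarb1, the HDL receptor, went from 108 CPM to 251 CPM (log2 fold change 1.21, SE 0.12, adjusted p = 1.1e-04 in edgeR). Cyp7a1, the rate-limiting enzyme of bile acid synthesis, went from 389 CPM to 67.4 CPM (log2 fold change -2.53, SE 0.26, adjusted p = 1.1e-04 in edgeR). Apom was lower and the median was 0.28. Nr5a2 itself had no call.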

How the data were processed

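Samples were grouped by the genotype in the labels, and the Bmal1-/- library titled with a number outside 1 to 4 took the number 4 given in its description. The authors mapped reads to GRCm38 with HISAT2 and counted fragments per gene with StringTie; the submitters' processing notes name TopHat2 2.0.6 and CASAVA 1.8 instead. The deposited counts are whole numbers that had not been normalized. The authors also deposited FPKM, which for 100% of 11442 genes was the count over the library total and 1 fixed length per gene, within 1%. Because Bmal1 goes against the label, the text writes "labelled Bmal1-/-".

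The members and the gene lists were chosen with earlier results of these data known. Fold changes came from edgeR 4.0.16 in R 4.3.3 with a quasi-likelihood test, TMM normalization, the filterByExpr filter and a prior count of 0.125, over 14353 genes, with the common dispersion at 0.0506. CPM is TMM-normalized unless a sentence names the library total. SE is the absolute log2 fold change over the square root of F, and 95% intervals use edgeR's total degrees of freedom. Promoter sequences are from RefSeq, GRCm38.p6, and gene coordinates and exons from GENCODE for GRCm38. Python 3.11.15 with matplotlib 3.10.9 was used for figures. The tests were first tested on simulated counts.

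Named by rule beside the members were up to 4 called genes per list with the largest log2 fold change in each direction (ties kept). So were list genes cited for their level in 1 library and the 2 genes nearest to each member. Tbx3, Nr2f6, Stat5b, Nr1i2, Col1a1 and the acute-phase targets other than Il1rn, Hp and Saa1 were named after their values were seen. Tat and the cell type markers Cdx1, Cdx2, Lyve1, Flt4 and Pdpn were not named by the rule either. Alternatives were DESeq2 1.42.0, limma-voom (limma 3.58.1), other normalizations and filters, a prior count of 2, the omission of each library in turn, a block for the replicate number, and limma on log2(FPKM + 0.1). Nothing beyond 4 samples per group is stated about the replicates, so p-values measure the spread between these samples. The numbers do not pair the samples: deviations of same-numbered libraries correlated at -0.06 to 0.06. The results of 2 genes that the rule names are not reported here.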

Additional observations from a re-analysis of the deposited data

Results flagged for a closer look

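In groups of 4 libraries, 1 library stood far from the other 3, by Dixon's 95% value for the gap over the range, in 7 of 80 groups looked at, and in 3 of the 18 groups of the lineage factors. Chance alone gives about 5% of groups. Hp and Saa1, among the 7, were named for their level in 1 library, so 7 of 80 cannot be set against that share.

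For the factors, Hnf4a was low in Bmal1+/+ replicate 4, at 681 CPM against 877 to 900 CPM in the other 3. Foxa3 was high in replicate 4 labelled Bmal1-/-, at 57.8 CPM against 39.4 to 42.2 CPM. Onecut1 was high in replicate 2 labelled Bmal1-/-, at 69.7 CPM against 4.87 to 15.2 CPM.

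Beside the factors, Nr1i2 was high in Bmal1+/+ replicate 2 (148 CPM against 125 to 128 CPM) and Igfbp1 low in Bmal1+/+ replicate 1 (140 CPM against 371 to 400 CPM). Hp and Saa1 were high in replicate 4 labelled Bmal1-/-, at 15600 CPM against 1850 to 3880 CPM and at 7750 CPM against 10.9 to 17.7 CPM.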

How the results depend on the processing

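Prox1 was called higher in every alternative run (log2 fold change 0.58 to 0.79), and Cebpb was lower in every one (-0.77 to -0.55), and lost its call with the replicate block alone (-0.67, adjusted p = 0.055). Leaving out libraries gave the following ranges: 0.38 to 0.67 for Foxa3, 0.38 to 0.80 for Foxa1, -0.66 to -0.03 for Foxa2, -0.48 to -0.18 for Cebpa and -2.74 to -0.91 for Onecut1. Foxa3 was called at 0.51 with DESeq2, 0.53 with limma-voom, 0.54 with library size only and 0.55 on log2 FPKM, so that 2 factors were higher in place of 1; without Bmal1+/+ replicate 3 it was 0.67 (adjusted p = 0.018 in edgeR). Onecut1 was called at -2.06 with limma-voom (2 factors lower). With the block 0 factors were lower, and for all genes 1809 were higher and 2064 lower, against 2135 and 2322. Leaving out libraries gave 1 to 2 factors higher, 1 to 2 lower, and 2 to 5 of the other liver factors lower, against 5; with no filter 3 were. The causes were not tested.

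Shares without division by length were 23.7% and 30.3% for Foxa1, 42.1% for Foxa2 in Bmal1+/+ libraries, and 34.1% and 41.9% for Foxa3, and the ratio of Cebpb to Cebpa was 1.07 and 0.869. With GENCODE lengths, chosen after seeing the data, the ratio was 1.88 and 1.52, Foxa1 made up 17.1% in Bmal1+/+ libraries, and Foxa2 42.8% and 28.6%. Leaving out libraries gave ratios of 3.07 to 3.80 and 2.34 to 3.11. Signs turned for Igfbp1 (0.01) at 0.00 with DESeq2, its size factors or upper quartile, at -0.01 with 10 counts in every sample or the block, and at -0.26 to 0.20 without libraries, and for Saa1 (5.57) at -0.55 with the block and -1.59 to 6.13 without libraries, the lowest without replicate 4 labelled Bmal1-/-.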
